A study of Mus musculus with 24 samples.

Results

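Macrophages grown from the bone marrow of diabetic mice differed from those of control mice in many genes, and the genes described here are those whose difference had the same sign before and after an inflammatory stimulus. All 24 libraries of the series were used. For each mouse, taken as the libraries with the same phenotype and replicate number, the log2 levels of the unstimulated and the stimulated library were averaged, and the 6 means of diabetic mice were compared with the 6 means of control mice. Of 11710 genes tested, 5229 differed in this mean and 4290 of those had the same sign in each state. Of these 4290, 1211 also differed in a test of each state on its own, and 2360 did so in stimulated cells only.

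The diabetic animals were male C57Bl/6 mice made diabetic with streptozotocin (STZ), which kills the beta cells that secrete insulin. The controls were male C57Bl/6 wild-type mice listed with no treatment, so that diabetes and exposure to STZ cannot be told apart. Marrow of both phenotypes was cultured for 7 days with conditioned medium of L929 cells, a source of macrophage growth factor, and adherent cells were kept. The cells were then left unstimulated or were stimulated with LPS (100 ng/mL), a component of bacterial walls sensed by TLR4, and interferon-gamma (10 ng/mL) over 6 h, all in medium with 5 mmol/L glucose. There were 6 libraries each of unstimulated diabetic, unstimulated control, stimulated diabetic and stimulated control cells. The comparison asks what of the donor's diabetes can still be read in cells that were kept in the same glucose.

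Bone marrow-derived macrophages release a little type I interferon at rest, and its receptor keeps a set of antiviral genes active through a complex that holds STAT2 and IRF9. LPS and interferon-gamma raise these genes and move the cells toward glycolysis. NRF2, a transcription factor held back by KEAP1 until oxidative stress frees it, drives genes of glutathione and thioredoxin, and HIF factors drive glucose uptake and glycolysis when the hydroxylases that mark them for breakdown are less active.

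Libraries held 16754771 to 28021162 reads in unstimulated diabetic, 20098813 to 26572456 in unstimulated control, 23533465 to 29136332 in stimulated diabetic and 22233139 to 34130060 in stimulated control cells. A count of 3 reads stood for 0.0835 to 0.1753 CPM (reads scaled to library size, on the authors' scale), which limits the precision of low genes through counting error alone. All 22 genes of a macrophage list were present, and Csf1r, the receptor of the growth factor M-CSF, lay at 2132 to 2412 CPM in unstimulated diabetic and 2128 to 2328 CPM in unstimulated control libraries. Control mouse 3 stood apart from the other control mice in many of the genes below, so several leading results are also given without it. In the deposited table the libraries are laid out as 2 column blocks of 12, each with 3 diabetic and 3 control mice, and no label says what the blocks are. Transcripts of the mitochondrial genome took 1.1 to 1.2% of reads in unstimulated diabetic against 0.79 to 0.94% in unstimulated control libraries, and 0.66 to 0.81% in stimulated diabetic against 0.51 to 0.62% in stimulated control libraries.

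A gene was called where the adjusted p of the mean, from limma with Benjamini-Hochberg adjustment over all 11710 genes, was below 0.05. By this rule 44.7% of the genes tested were called, 2846 higher and 2383 lower in diabetic cells. Called genes with the same sign in each state made up 19.3% of the genes tested in the higher direction (2261 genes) and 17.3% in the lower direction (2029 genes). A stricter count took genes called in the unstimulated and again in the stimulated libraries with the same sign. It held 4.42% of the genes tested as higher (518 genes) and 5.92% as lower (693 genes), and these 1211 genes were all called in the mean as well. Of the other 3079 same-sign genes, 2360 were called in stimulated cells only, 481 in unstimulated cells only and 238 in neither. Called or not, 60.2% of all genes tested had the same sign in each state. The 4 percentages above are the shares to set beside the counts of each list below. The split between higher and lower depended on how libraries were scaled. It was 2846 to 2383 with the authors' scaling, 4640 to 1501 with total-read scaling and 2290 to 2967 with median-of-ratios scaling. In the stricter count 518 of 1211 genes were higher with the authors' scaling, 830 of 1284 with total-read scaling and 437 of 1206 with median-of-ratios scaling. The median difference of all genes was 0.02 with the authors' scaling, 0.076 with total-read scaling and -0.006 with median-of-ratios scaling, on the log2 scale. Without control mouse 3, 4787 genes were called and 1078 passed the stricter count.

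Most shared differences were small. The median absolute log2 difference was 0.32 for the 1211 genes called in each state, against 0.10 for all genes tested. Of these 1211 genes, 103 were higher and 168 lower by at least 0.5 in the mean, and 6 were higher and 12 lower by at least 1 in each state. The mouse means of the phenotypes did not overlap for 1080 of the 1211 genes, against 2731 (23.3%) of all genes tested. The 1211 genes were chosen by calls in these same libraries, so this contrast follows largely from the choice. A separate test asked whether the difference between diabetic and control cells itself changed with the stimulus, and it called 32.8% of the genes tested. Of the 1211 genes, 304 were called by it and 907 were not, which does not show that their differences were equal in size. A further 232 genes were called in each state with opposite signs.

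**Figure D1:**
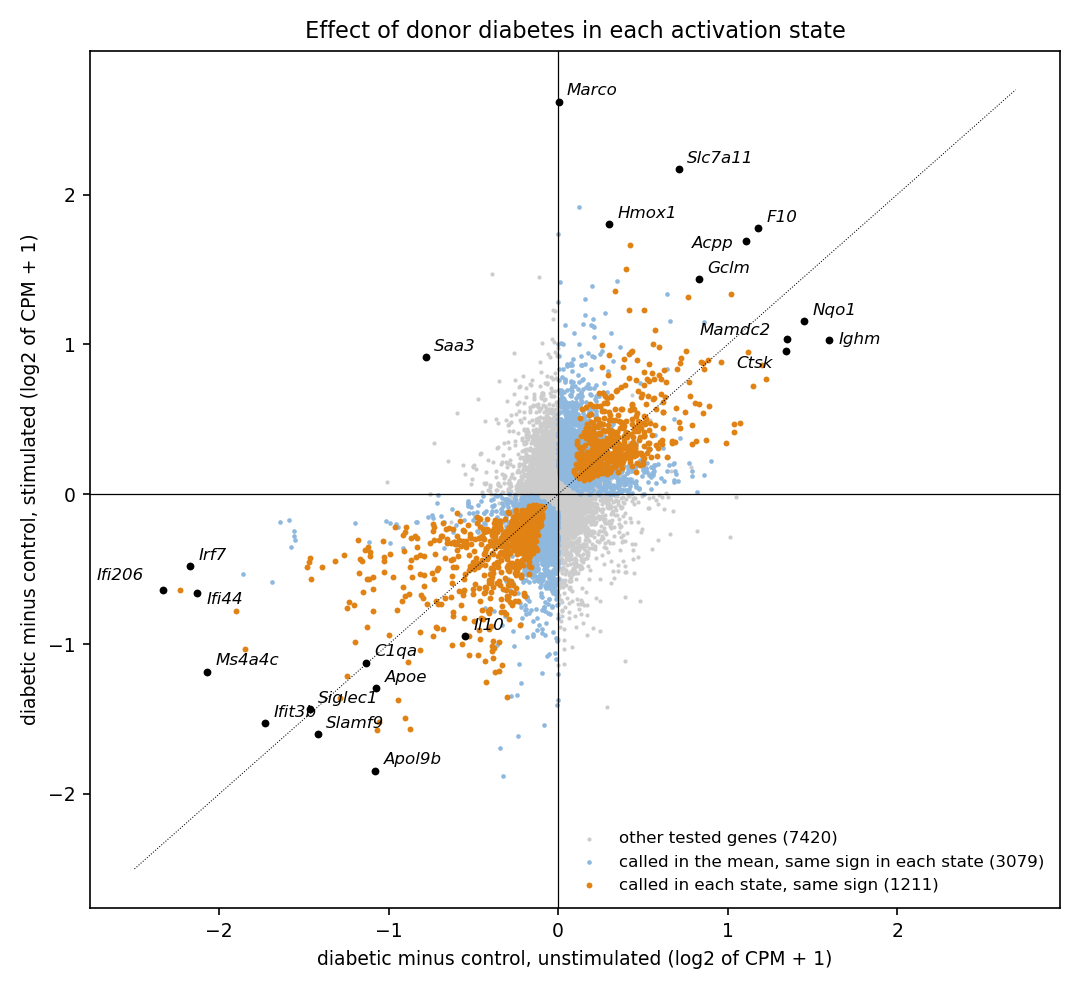
Log2 difference (diabetic minus control, CPM + 1) of each of the 11710 genes tested in unstimulated libraries (horizontal axis) and in stimulated libraries (vertical axis), with the line of equal values dotted. Genes called in each state with the same sign (1211) are orange (black and labelled where named) and lie at the lower left and the upper right. Irf7 lies at -2.17 and -0.48, with the larger difference in unstimulated cells, and Marco at 0.00 and 2.62, with its difference in stimulated cells.

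Antiviral genes were lower in diabetic cells in both states. All 32 tested members of a list of type I interferon-stimulated genes fell with the same sign in each state, and 23 of them were called in each state. The list's median log2 difference was -0.75 in the mean, -1.13 in unstimulated and -0.34 in stimulated cells, against 0.02 in the mean for all genes tested. In these bulk libraries, fewer cells that express a gene and less RNA per cell cannot be told apart. Irf7, the factor that amplifies interferon production, had 57.2, 82.7 and 132 CPM (lowest, median and highest) in unstimulated diabetic libraries, against 261, 371 and 740 CPM in unstimulated control libraries. After the stimulus it had 2354, 2506 and 2695 CPM in diabetic libraries, against 3275, 3330 and 4036 CPM in control libraries. The phenotypes did not overlap in either state, and the stimulated libraries all lay above the unstimulated ones. Irf7 fell by 1.33 ± 0.15 in the mean (log2, SE, adjusted p = 5.5e-05), by 2.17 in unstimulated and by 0.48 in stimulated cells, and the difference between the states was called (1.69 ± 0.19, adjusted p = 6.4e-05). Without control mouse 3, Irf7 fell by 1.21.

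Of the 32 genes, 29 were called for a difference between the states, and Ifit3b was among those that were not. Ifit3b, of a family that binds viral RNA, had 1.61, 2.2 and 2.69 CPM in unstimulated diabetic libraries, against 5.76, 8.57 and 20.8 CPM in unstimulated control libraries. In stimulated libraries it had 48.1, 54.5 and 72.9 CPM in diabetic cells, against 132, 163 and 202 CPM in control cells. No library of either phenotype reached the range of the other. Its log2 difference was -1.63 ± 0.16 in the mean (adjusted p = 2.3e-05), -1.73 in unstimulated and -1.53 in stimulated cells, and -1.49 in the mean without control mouse 3. At its low unstimulated levels the added 1 CPM shrinks the difference, so an equal size in both states is not shown. Ifit3 fell by 1.44 ± 0.15. Ifit3 and Ifit3b are near-identical copies, so the counting could have split their reads and their separate values are uncertain. The same holds for Ifi206, Ifi208 and Ifi213, DNA sensors of the PYHIN family on chromosome 1. Ifi206 fell by 1.49 ± 0.17, Ifi208 fell by 1.34 ± 0.18 and Ifi213 fell by 1.43 ± 0.18. Apol9b, which also has a close copy, fell by 1.46 ± 0.16. Ifi44 fell by 1.40 ± 0.15.

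Irf9, the DNA-binding partner of STAT2, fell by 0.34 ± 0.04, with 57.4 to 61.4 CPM in unstimulated diabetic against 75.5 to 98.3 CPM in unstimulated control libraries. Ifitm3, which blocks the entry of viruses, fell by 0.49 ± 0.05. The genes F7, Cd5l, Itgax, Ccl4, Vegfa, Tlr9, Gclc, Csf1r, Mki67, Maf, Lcn2 and the members that are named only to complete a count are not among those that the naming rule gives, and were chosen after their values were seen. The median of the antiviral list was -0.67 in the first and -0.82 in the second column block. Without control mouse 3 it was -0.67, with 31 genes lower with the same sign in each state. The count called in each state was 15 with total-read scaling, 7 with quantile normalization and 7 in the second column block. With quantile normalization 26 of the genes fell with the same sign in each state and the stimulated median was -0.17. In the second column block 28 fell with the same sign.

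The promoters of 3 members that hold an interferon-stimulated response element are shown because this element is the docking site of the IRF9 complex. Each is the run of 250 bases before the transcription start, from RefSeq (GRCm38.p6), 5′ to 3′ on the gene's strand, and capitals mark matches to GAAANNGAAA on either strand, overlapping matches included. They are Oas1a at chr5:120907526-120907775 (minus strand), Bst2 at chr8:71537473-71537722 (minus strand) and Ifit3b at chr19:34607707-34607956 (plus strand).
Oas1a: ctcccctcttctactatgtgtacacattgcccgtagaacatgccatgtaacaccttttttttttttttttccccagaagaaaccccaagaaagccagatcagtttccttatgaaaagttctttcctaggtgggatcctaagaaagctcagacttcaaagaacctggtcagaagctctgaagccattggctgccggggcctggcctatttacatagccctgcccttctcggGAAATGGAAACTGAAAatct
Bst2: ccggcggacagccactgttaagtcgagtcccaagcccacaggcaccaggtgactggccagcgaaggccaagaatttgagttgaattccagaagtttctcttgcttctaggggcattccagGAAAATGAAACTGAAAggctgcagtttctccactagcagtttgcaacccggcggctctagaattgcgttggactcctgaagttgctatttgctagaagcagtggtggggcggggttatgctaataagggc
Ifit3b: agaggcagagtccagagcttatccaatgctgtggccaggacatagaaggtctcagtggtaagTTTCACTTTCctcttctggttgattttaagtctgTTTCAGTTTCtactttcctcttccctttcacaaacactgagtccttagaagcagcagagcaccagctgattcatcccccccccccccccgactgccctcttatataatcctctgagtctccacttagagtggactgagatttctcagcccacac
The nearest match began 14 bases before the start in Oas1a, 124 bases in Bst2 and 154 bases in Ifit3b, and each promoter held 2 matches. Of the 32 genes, 22 had a promoter in the table and 10 of those (45.5%) held the letters, against 3.66% of 9039 tested genes with a promoter and 2.98% of all 32851 promoters. A match describes the letters and shows no binding. Oas1a, which makes the activator of RNase L, fell by 0.65 ± 0.07 (adjusted p = 7.9e-06), with 37.2 to 46.3 CPM in unstimulated diabetic against 65 to 104 CPM in unstimulated control libraries. Bst2, tetherin, which holds budding viruses at the cell surface, fell by 0.70 ± 0.08 (adjusted p = 1.7e-05), with 516 to 591 CPM in stimulated diabetic against 677 to 808 CPM in stimulated control libraries.

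**Figure D2:**
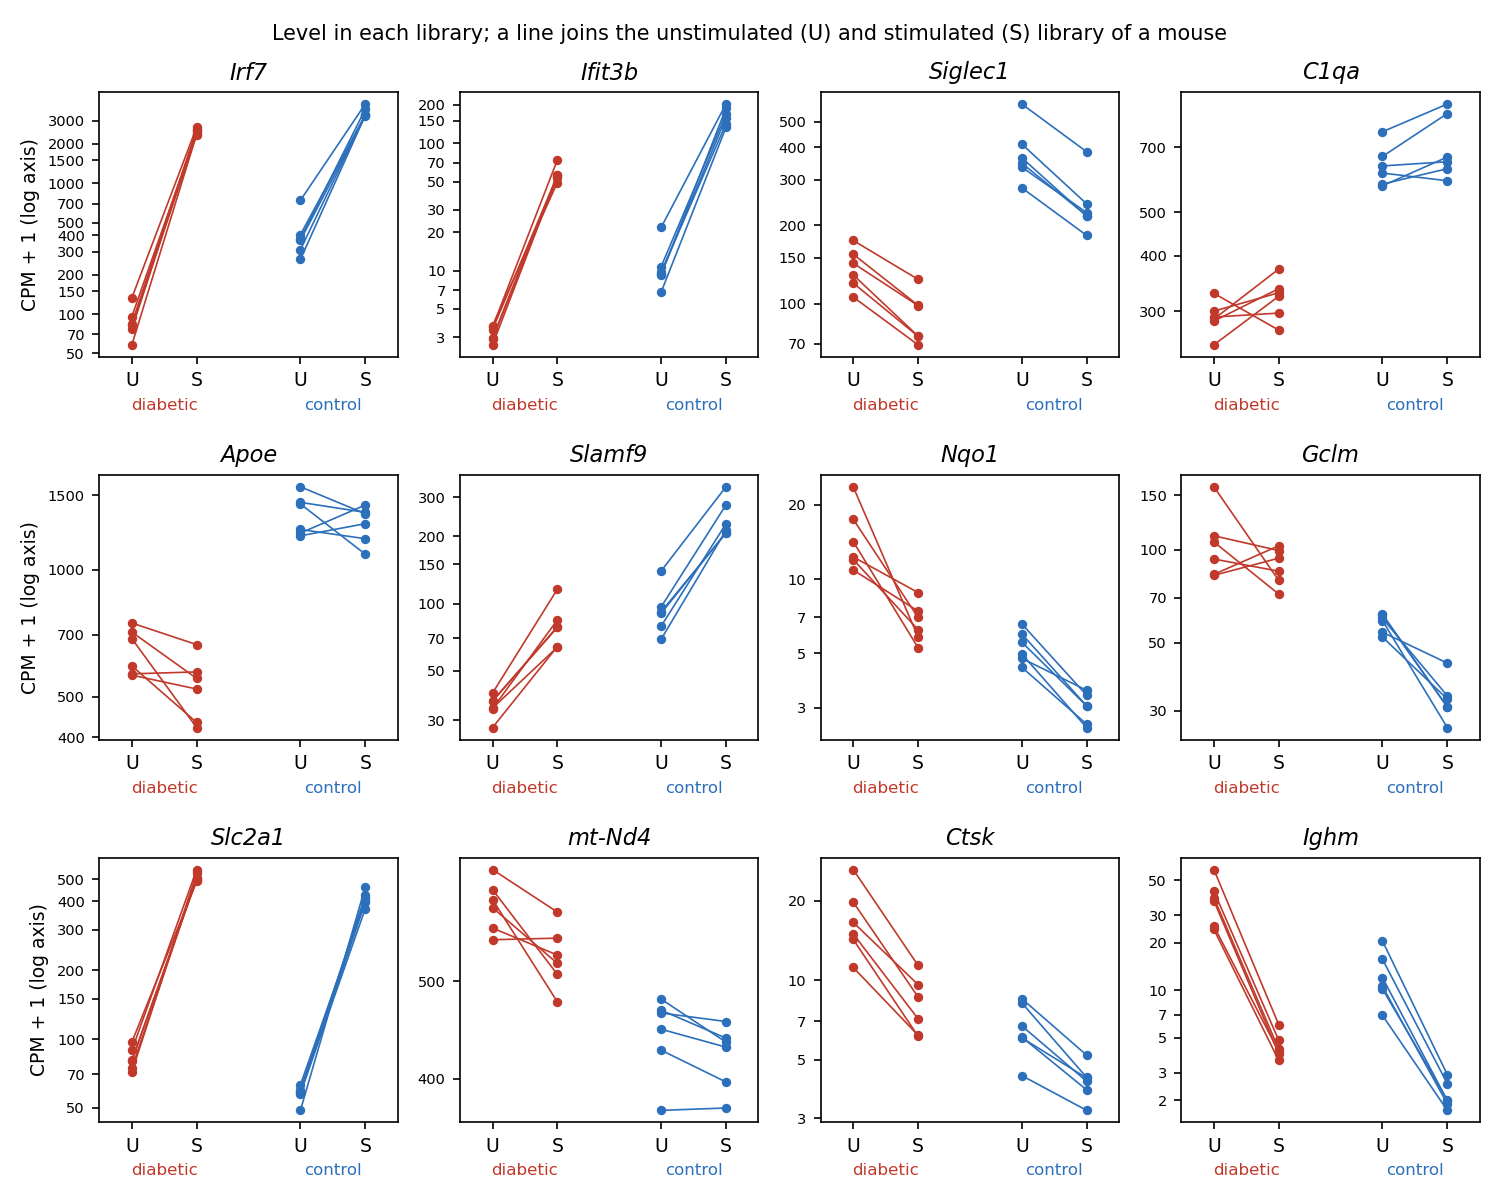
CPM + 1 (log axis) of 12 genes in each library, diabetic mice in red on the left and control mice in blue on the right; a line joins the unstimulated (U) and the stimulated (S) library of a mouse. Irf7, Ifit3b, Siglec1, C1qa, Apoe and Slamf9 lie lower and Nqo1, Gclm, Slc2a1, mt-Nd4, Ctsk and Ighm lie higher in diabetic libraries, without overlap in either state.

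Genes best known as targets of interferon-gamma were also lower. Of 20 tested GTPases and regulators of that pathway, 16 fell with the same sign in each state and 12 of them were called in each state, with a median of -0.48. In the second column block 12 fell with the same sign and 5 were called in each state, and 9 were called in each state with total-read scaling and 9 with quantile normalization. Irgm1, an immunity-related GTPase that acts on membranes around microbes, had 59.8 to 72.1 CPM in unstimulated diabetic against 98.6 to 164 CPM in unstimulated control libraries. In stimulated cells it had 1112 to 1279 CPM in diabetic against 1356 to 1646 CPM in control libraries, and it fell by 0.59 ± 0.07 (adjusted p = 3.8e-05). The guanylate-binding protein Gbp9 fell by 0.54 ± 0.06. Irf8, a lineage factor that interferon-gamma raises, showed its difference in stimulated cells, with 1884 to 2489 CPM in diabetic against 3163 to 4086 CPM in control libraries. There Irf8 fell by 0.79 ± 0.06, whereas in unstimulated cells the ranges overlapped and its difference was -0.17 ± 0.06 (adjusted p = 0.058).

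The interferon receptors and the first steps of their signalling moved little. Of 12 tested genes, 6 fell with the same sign in each state and the median was -0.08. They were Ifnar2, Ifngr2, Jak2, Tyk2, Tbk1 and Tmem173. With total-read scaling 2 fell and 1 rose, and with quantile normalization 3 fell. Ifnar2, a chain of the type I interferon receptor, fell by 0.19 ± 0.03 (adjusted p = 0.00016), and its unstimulated diabetic libraries held 78.8 to 86.4 CPM, below the 94.1 to 101 CPM of the unstimulated control libraries. The kinase Tyk2 fell by 0.22 ± 0.03, with -0.02 in unstimulated and -0.43 in stimulated cells. Tmem173, the DNA-response adaptor STING, fell by 0.24 ± 0.04.

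MHC class II genes, which present peptides to CD4 T cells and which interferon-gamma also raises, went the other way. Of 8 tested, 6 rose with the same sign in each state (Ciita, H2-Ab1, H2-DMa, H2-DMb1, Cd74 and H2-Ob), none was called in each state, and the median was 0.32. H2-DMb1, which helps load the peptides, had 62.3 to 80.3 CPM in stimulated diabetic against 42.4 to 53.7 CPM in stimulated control libraries and rose by 0.30 ± 0.04 in the mean, with 0.02 in unstimulated cells. H2-Ab1, a chain of the class II molecule, rose by 0.51 ± 0.14 (adjusted p = 0.01). It was called in neither column block. The count of the list was 3 without control mouse 2, 3, 4 or 6 or diabetic mouse 4 or 6, and 2 without diabetic mouse 3. It was 1 in the first column block and 1 in the second.

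Complement genes were more often lower than higher. C1qa, C1qb and C1qc lie side by side on chromosome 4 and encode the chains of complement C1q. C1qa had 251, 288 and 328 CPM in unstimulated diabetic libraries, against 573, 624 and 758 CPM in unstimulated control libraries. It had 271, 326 and 372 CPM in stimulated diabetic libraries, against 588, 657 and 875 CPM in stimulated control libraries. The ranges were apart in both states, as were those of the other two genes. C1qa fell by 1.13 ± 0.07 (adjusted p = 3.9e-07), and the difference between the states was 0.01 ± 0.10. C1qb fell by 0.71 ± 0.06 and C1qc fell by 0.75 ± 0.06. Of 16 tested complement genes, 7 fell and 2 rose with the same sign in each state, and the median was -0.19. The median was -0.11 with a pseudocount of 5 CPM and -0.41 on the deposited log2 values. The genes that rose were Itgax and Serping1. Itgax, an integrin chain also used as a marker of dendritic cells, had a difference of 0.89 ± 0.30 (adjusted p = 0.036) with overlapping unstimulated ranges. Its call was lost in each column block and without control mouse 5 or 6 or diabetic mouse 2, 3, 4 or 5.

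Apoe, the lipoprotein that carries cholesterol out of macrophages, had 561, 637 and 746 CPM in unstimulated diabetic libraries, against 1202, 1337 and 1571 CPM in unstimulated control libraries. Stimulated libraries held 421, 535 and 663 CPM in diabetic cells, against 1087, 1320 and 1422 CPM in control cells. Every diabetic library was below every control library of its state. Apoe fell by 1.18 ± 0.07 in the mean (adjusted p = 3.6e-07), and by 1.2 without control mouse 3. The list of cholesterol efflux and lipid handling did not share a direction: of 17 tested, 5 fell (Apoe, Nr1h3, Npc2, Pparg and Ch25h) and 3 rose (Fabp4, Soat1 and Gpnmb), with a median of -0.03 that was 0.04 with total-read scaling. Npc2, which moves cholesterol out of lysosomes, fell by 0.39 ± 0.04. Pparg, a lipid-sensing nuclear receptor, fell by 0.83 ± 0.07, with 1.84 to 3.42 CPM in stimulated diabetic against 6.48 to 12.4 CPM in stimulated control libraries.

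Siglec1, the sialic acid receptor CD169 of tissue macrophages, had 105, 135 and 174 CPM in unstimulated diabetic libraries, against 278, 355 and 585 CPM in unstimulated control libraries. It had 68.4, 85.7 and 123 CPM in stimulated diabetic libraries, against 182, 220 and 383 CPM in stimulated control libraries. Siglec1 fell by 1.45 ± 0.19 in the mean (adjusted p = 0.00013), and by 1.32 without control mouse 3. Slamf9, a receptor of the SLAM family, fell by 1.51 ± 0.15, and Aif1, the actin-binding protein IBA1, fell by 1.32 ± 0.11. Cd5l, a secreted protein of tissue macrophages, fell by 1.32 ± 0.20. For these 4 genes the ranges of the phenotypes were apart in both states. Ms4a4c, of a membrane protein family with similar copies whose reads are uncertain, fell by 1.63 ± 0.21. Of 22 macrophage identity genes, 12 fell and 5 rose (Cx3cr1, Cebpa, Cebpb, Lyz1 and Lyz2), with a median of -0.19, and -0.12 with total-read scaling and -0.09 with quantile normalization. Fcgr1, the high-affinity IgG receptor, fell by 0.80 ± 0.08. Maf, a factor of resident macrophages, fell by 0.42 ± 0.06, and Adgre1, the F4/80 antigen, fell by 0.29 ± 0.03. Csf1r differed by 0.03 ± 0.03 (adjusted p = 0.49) and Runx1, a blood lineage factor, by 0.01 ± 0.03 (adjusted p = 0.74). Both depended on the scaling: Csf1r was called as higher with total-read scaling (0.09, adjusted p = 0.0068) and quantile normalization (0.15, adjusted p = 0.00034), and Runx1 with total-read scaling (0.08, adjusted p = 0.046). The summed level of the identity genes was 19452 to 22881 CPM in unstimulated diabetic against 20199 to 21666 CPM in unstimulated control libraries, and 19011 to 21538 CPM in stimulated diabetic against 22641 to 26002 CPM in stimulated control libraries.

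**Figure D3:**
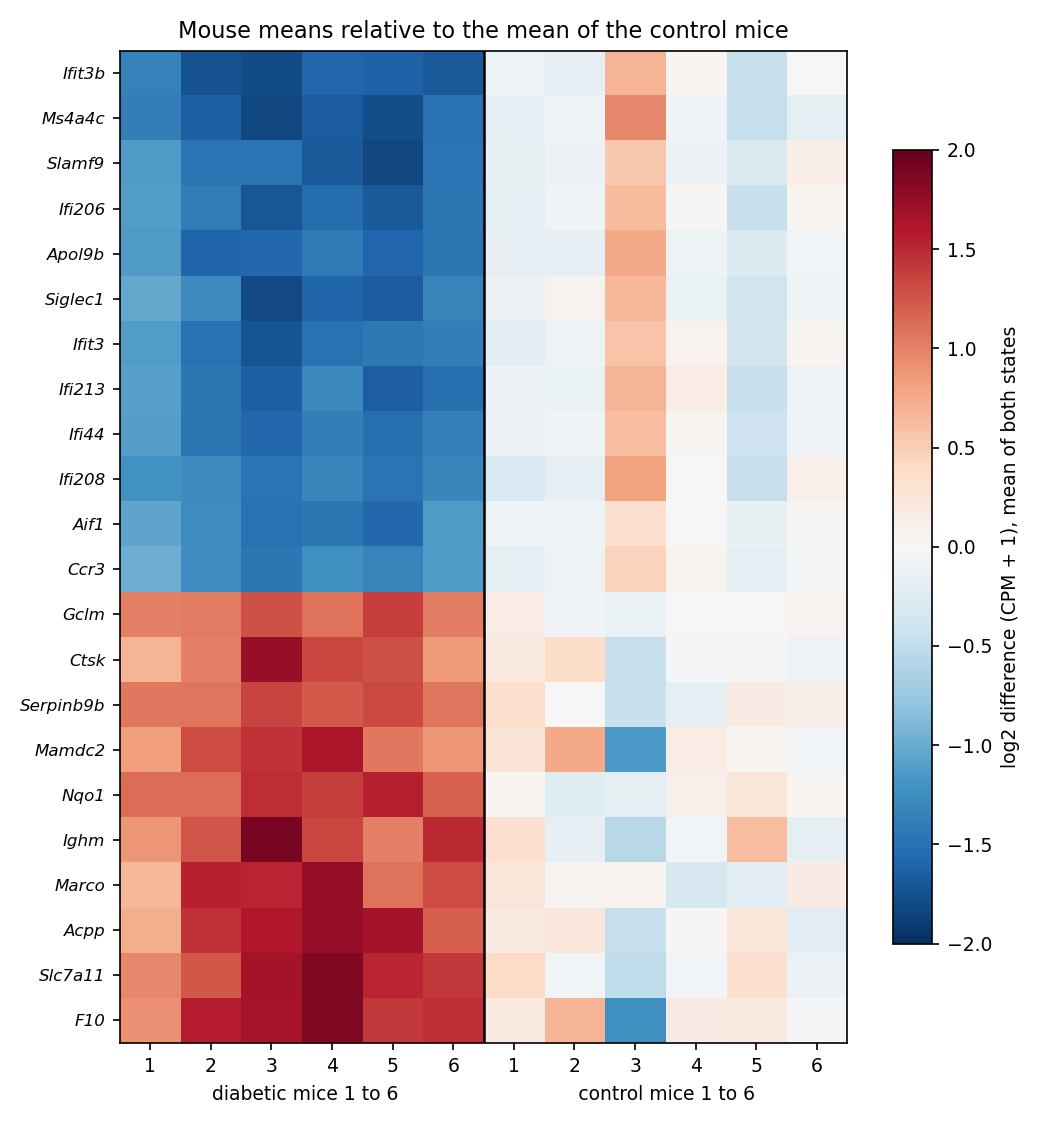
Log2 level (CPM + 1, mean of both states) in each mouse of the genes with the largest differences of the same sign in each state, relative to the mean of the control mice. Diabetic mice are on the left, control mice on the right, blue is lower and red higher. Marco is included through its mean, although its difference was 0.00 in unstimulated and 2.62 in stimulated cells. Ifit3b (-1.63) and Ms4a4c (-1.63) are lowest in the diabetic mice, and F10 (1.48) and Slc7a11 (1.44) are highest in them.

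Scavenger receptors did not share a direction. Of 13 tested, 4 rose (Marco, Olr1, Clec4d and Clec4e) and 3 fell (Msr1, Mrc1 and Cd5l) with the same sign in each state. Marco, which binds bacteria and oxidised lipoproteins, rose by 1.31 ± 0.17 in the mean. In stimulated cells it had 24, 62.9 and 96.2 CPM in diabetic libraries, against 6.18, 7.52 and 15.1 CPM in control libraries. In unstimulated cells the ranges overlapped, at 0.638 to 1.01 CPM in diabetic and 0.460 to 1.65 CPM in control libraries. There the difference of Marco was 0.00 after rounding, so its sign in that state carries no weight. Olr1, a receptor of oxidised LDL, rose by 0.44 ± 0.06 in the mean. In unstimulated cells it had at most 0.379 CPM and its difference was 0.12 (adjusted p = 0.43), against 0.75 in stimulated cells. Clec4e, the receptor Mincle for mycobacterial lipids, rose by 0.38 ± 0.04. Cd36, a fatty acid transporter, differed by 0.12 ± 0.08 (adjusted p = 0.23).

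NRF2 targets were higher in diabetic cells. Of 22 tested, 21 rose with the same sign in each state, 14 were called in each state, and the median was 0.48 in the mean, 0.32 in unstimulated and 0.67 in stimulated cells. In the second column block 8 were called in each state. The member outside this count was Sqstm1. Nqo1, a quinone reductase, had 9.88, 12.2 and 22.7 CPM in unstimulated diabetic libraries, against 3.38, 4.25 and 5.57 CPM in unstimulated control libraries. It had 4.26, 5.61 and 7.81 CPM in stimulated diabetic libraries, against 1.49, 2.05 and 2.53 CPM in stimulated control libraries. Every diabetic library was above every control library of its state. Nqo1 rose by 1.30 ± 0.09 (adjusted p = 3.1e-07), and by 1.27 without control mouse 3. Gclm, the regulatory subunit of the enzyme that limits glutathione synthesis, had 81.6, 98.7 and 159 CPM in unstimulated diabetic libraries, against 51.1, 58.4 and 60.8 CPM in unstimulated control libraries. It rose by 1.13 ± 0.07 (adjusted p = 1.7e-07), without overlap in either state. The catalytic subunit Gclc rose by 0.95 ± 0.07. Slc7a11, which imports cystine for glutathione, rose by 1.44 ± 0.18, with 71.6 to 187 CPM in stimulated diabetic against 19.7 to 41.4 CPM in stimulated control libraries. Srxn1, a sulfiredoxin, rose by 1.05 ± 0.06, and Txnrd1, thioredoxin reductase, rose by 0.69 ± 0.06. Cat, catalase, rose by 0.47 ± 0.03, with 0.47 in unstimulated and 0.46 in stimulated cells.

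Hmox1, haem oxygenase, rose by 1.05 ± 0.06 in the mean, with a difference between the states of 1.5 ± 0.16. It had 1569 to 1782 CPM in stimulated diabetic against 367 to 581 CPM in stimulated control libraries. In unstimulated cells the ranges overlapped and the difference was 0.30 ± 0.11 (adjusted p = 0.059). Nfe2l2, the gene of NRF2, rose by 0.27 ± 0.03 (adjusted p = 6e-06). Keap1 differed by -0.03 ± 0.02 (adjusted p = 0.27), and by 0.03 with total-read scaling. Mafg, a small partner of NRF2, rose by 0.35 ± 0.04, with 0.01 in unstimulated cells. The list's median was 0.46 in the first and 0.49 in the second column block, and 0.46 without control mouse 3.

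The promoter of Gclm is shown as that of a leading member that holds an antioxidant response element, the site of NRF2 and its partners. Its match to TGACNNNGC, searched on both strands, is in capitals (250 bases before the start, RefSeq GRCm38.p6, 5′ to 3′, chr3:122245307-122245556 (plus strand)).
Gclm: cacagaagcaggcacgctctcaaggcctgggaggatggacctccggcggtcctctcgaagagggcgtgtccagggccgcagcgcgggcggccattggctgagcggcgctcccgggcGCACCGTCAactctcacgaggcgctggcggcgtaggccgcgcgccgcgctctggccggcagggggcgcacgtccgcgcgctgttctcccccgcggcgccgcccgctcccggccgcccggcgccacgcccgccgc
The match began 134 bases before the start. Of 17 list members with a promoter, 4 held the letters (23.5%), against 14.1% of tested genes with a promoter and 10.2% of all promoters.

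The pentose phosphate pathway, which makes the NADPH that these enzymes use, moved in the same direction on a smaller scale. Of 8 tested genes, 5 rose (G6pdx, Pgd, Rpia, Tkt and Taldo1) and 1 fell (Rpe), with a median of 0.13. Pgd, a dehydrogenase of the pathway, had 472 to 610 CPM in unstimulated diabetic against 382 to 423 CPM in unstimulated control libraries. It had 602 to 664 CPM in stimulated diabetic against 469 to 522 CPM in stimulated control libraries. The ranges were apart in each state, and Pgd rose by 0.38 ± 0.03 (adjusted p = 4.2e-07). G6pdx, the entry enzyme, rose by 0.16 ± 0.03. Idh1, the cytosolic enzyme that also makes NADPH, had a difference of 0.42 in unstimulated and 0.00 in stimulated cells.

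Glycolysis and lactate export were higher. Of 21 tested genes, 16 rose with the same sign in each state, 9 were called in each state, 0 fell, and the median was 0.25. Slc2a1, the glucose transporter GLUT1, had 70.8, 79.6 and 95.9 CPM in unstimulated diabetic libraries, against 47.8, 57.5 and 62.1 CPM in unstimulated control libraries. It had 487, 503 and 549 CPM in stimulated diabetic libraries, against 370, 407 and 460 CPM in stimulated control libraries. The phenotypes were apart in each state, and Slc2a1 rose by 0.41 ± 0.04 (adjusted p = 5.4e-07). Slc16a3, which exports lactate, rose by 0.52 ± 0.05, and Pgam1, a glycolytic mutase, rose by 0.39 ± 0.04. The members outside the count were Hk1, Hk3, Pfkfb3, Pfkfb4 and Eno2. Without control mouse 3, 6 genes were called in each state, and without diabetic mouse 3 or 5 there were 5. In the first column block 4 were called in each state.

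HIF targets outside glycolysis moved likewise. Of 20 tested, 13 rose with the same sign in each state and 1, Plin2, fell, with a median of 0.34. Egln3, a hydroxylase that marks HIF for breakdown, had 2.81, 3.68 and 5.17 CPM in unstimulated diabetic libraries, against 0.950, 1.90 and 2.39 CPM in unstimulated control libraries. It had 2.09, 2.42 and 3.32 CPM in stimulated diabetic libraries, against 0.150, 0.485 and 0.623 CPM in stimulated control libraries. The levels were low but apart in both states, and Egln3 rose by 1.04 ± 0.10 (adjusted p = 2.9e-06). Bnip3, a receptor for the removal of mitochondria, rose by 0.46 ± 0.05. Pdk1, which keeps pyruvate from oxidation, rose by 0.37 ± 0.03, and Vegfa, a growth factor of vessels, rose by 0.68 ± 0.10. Mxi1, an antagonist of MYC, rose by 0.55 ± 0.05 (adjusted p = 1.8e-06). Without control mouse 3, 6 genes of the list were higher in each state, against 9 with it. The same count was 5 in the first and 2 in the second column block.

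The promoter window of Mxi1 is shown as that of a leading member that holds a hypoxia response element, the core letters that HIF binds. It is 1 of 3 RefSeq windows of the gene, and it lies inside the gene, which begins at base 53310506. Its match to ACGTG, searched on both strands, is in capitals (250 bases before the start, RefSeq GRCm38.p6, 5′ to 3′, chr19:53329163-53329412 (plus strand)).
Mxi1: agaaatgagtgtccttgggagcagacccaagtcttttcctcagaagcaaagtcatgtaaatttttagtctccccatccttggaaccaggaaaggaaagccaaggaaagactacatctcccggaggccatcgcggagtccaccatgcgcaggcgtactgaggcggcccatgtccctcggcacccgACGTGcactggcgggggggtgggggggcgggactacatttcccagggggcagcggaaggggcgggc
The match began 66 bases before the start. Of 17 list members with a promoter, 11 held the letters (64.7%), against 25.4% of tested genes with a promoter and 16.6% of all promoters.

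**Figure D4:**
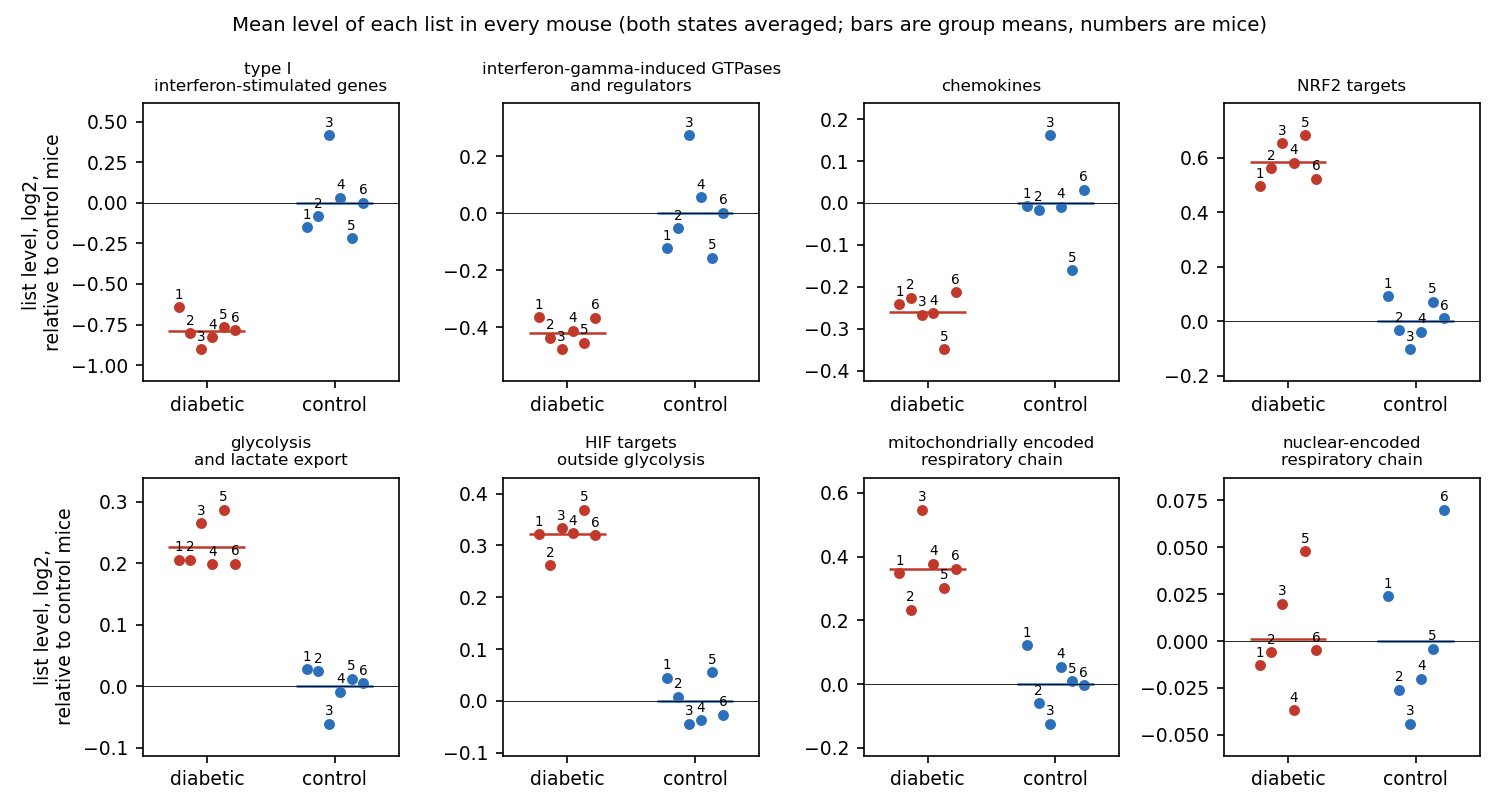
Mean log2 level of 8 gene lists in each mouse (both states averaged), relative to the mean of the control mice, diabetic mice on the left of each panel. In 7 lists no diabetic mouse reaches the range of the control mice, and in the nuclear-encoded respiratory chain they overlap. For type I interferon-stimulated genes the diabetic mice lie between -0.90 and -0.64 and the control mice between -0.22 and 0.42, where control mouse 3 is the highest.

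Transcripts of the mitochondrial genome were higher, while the nuclear genes of the respiratory chain had no shared direction. Of 13 mitochondrial protein genes, 7 were tested and 6 rose, all of them called in each state, with a median of 0.38. The member outside this count was mt-Nd6. mt-Cytb, of complex III, had 1534 to 1821 CPM in unstimulated diabetic against 947 to 1311 CPM in unstimulated control libraries and rose by 0.45 ± 0.05 (adjusted p = 1.1e-05). mt-Nd4, of complex I, rose by 0.38 ± 0.05, and mt-Nd5 rose by 0.34 ± 0.04. Of 31 nuclear genes of the chain, 1 (Ndufs1) rose and 1 (Ndufa2) fell, and the median was -0.01. Ndufs1 was not called in 17 and Ndufa2 in 16 of the 27 alternative settings tried. With total-read scaling 9 rose and 0 fell, and with median-of-ratios scaling 0 rose and 5 fell. Of 22 genes of the TCA cycle and itaconate synthesis, 5 rose and 4 fell, near the shares of all genes tested (19.3% and 17.3%). With total-read scaling 10 of that list rose and 0 fell. Without control mouse 1 or 6 or diabetic mouse 1, 2, 4 or 6, 2 genes of that list fell. In the first column block 2 rose and 0 fell, and in the second 1 rose and 2 fell. Of 17 fatty acid oxidation genes, 7 rose and 2 (Acaa2 and Ech1) fell, and 4 rose without control mouse 2 or diabetic mouse 3 or 4. In each column block 2 of them rose.

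**Figure D5:**
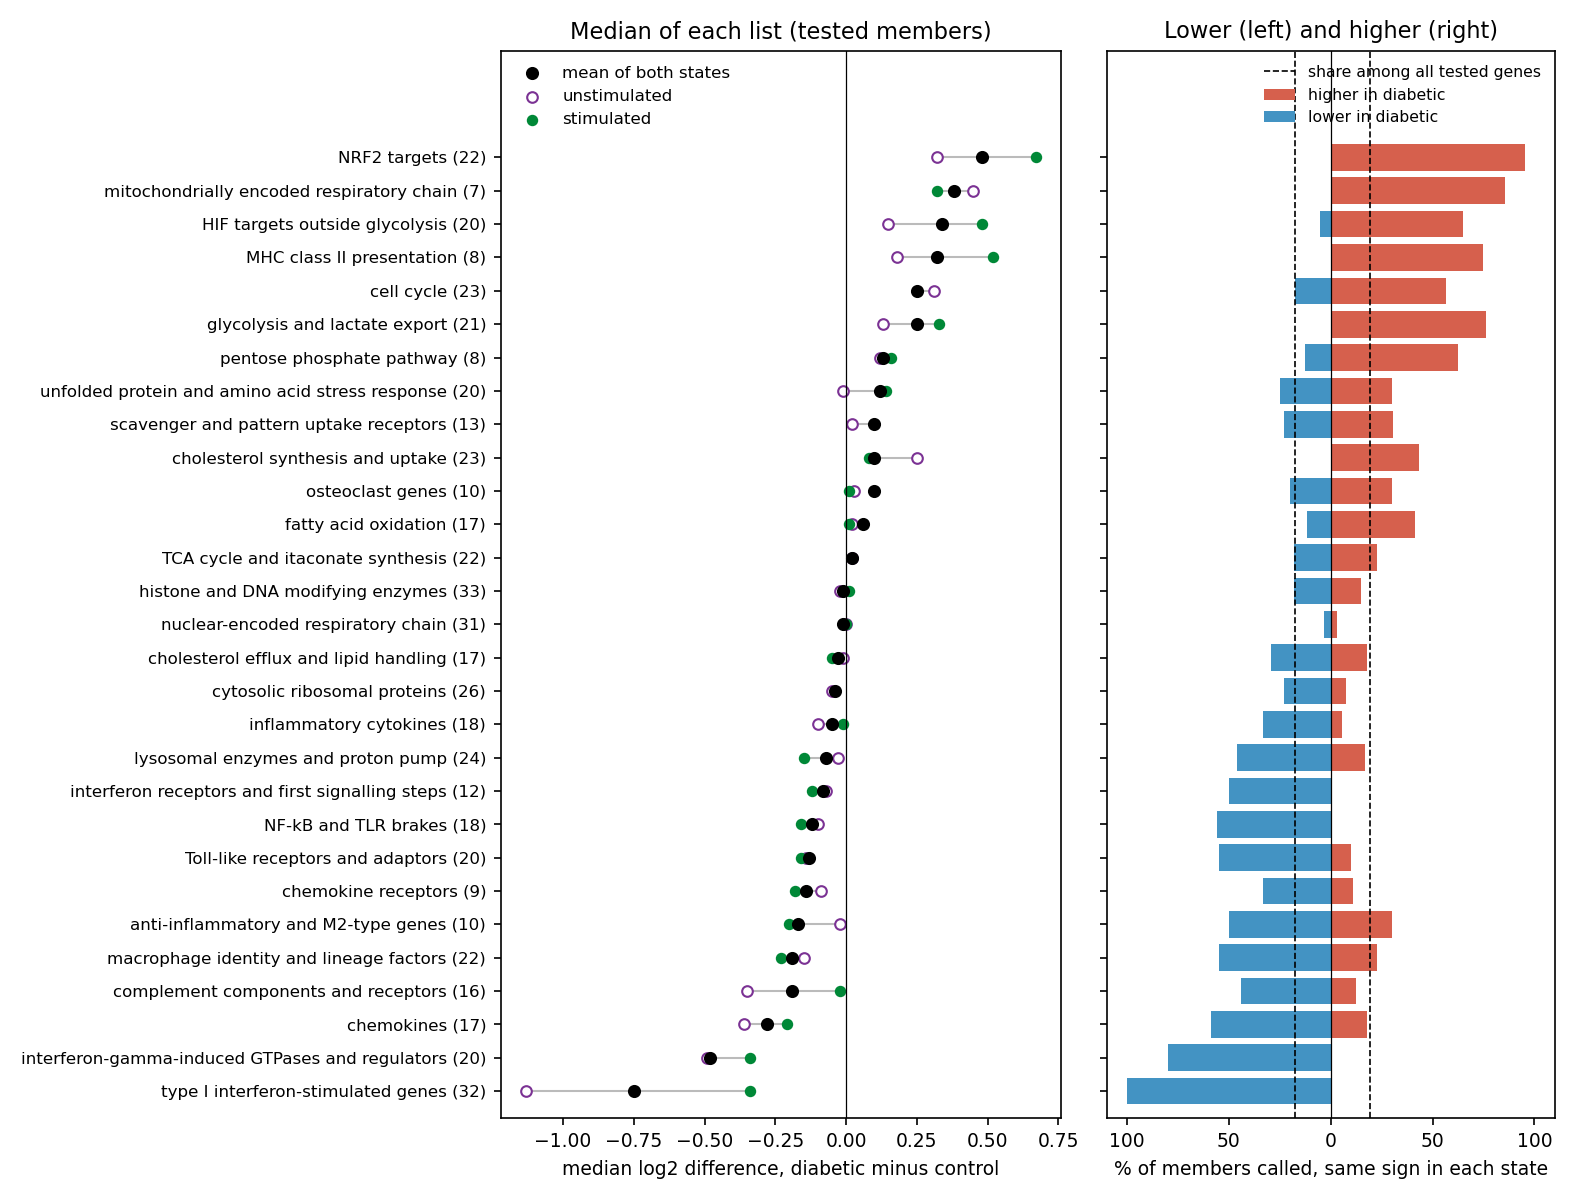
For each gene list (number of tested members in brackets), the left panel shows the median log2 difference (diabetic minus control) in the mean of both states, in unstimulated and in stimulated cells. The right panel shows the percent of members called with the same sign in each state, lower in diabetic to the left and higher to the right, with the shares among all tested genes (17.3% and 19.3%) dashed. The antiviral list lies at the lower end and the NRF2 list at the upper end; the balance of the TCA cycle, nuclear respiratory chain and ribosomal lists, and the median of the lysosomal list, changed with the scaling.

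Toll-like receptors and regulators of their signalling were more often lower. Of 20 Toll-like receptors and adaptors, 11 fell and 2 (Tlr2 and Ticam2) rose. In the first column block 7 fell. Myd88, the adaptor of most of these receptors, had 68.2 to 73.6 CPM in unstimulated diabetic against 84 to 97.2 CPM in unstimulated control libraries, and fell by 0.29 ± 0.03 (adjusted p = 4.9e-06). Tlr13, which senses bacterial ribosomal RNA, fell by 0.38 ± 0.05, and Tlr9, which senses DNA, fell by 0.65 ± 0.09. Of 18 brakes of NF-kB and TLR signalling, 10 fell and 0 rose with the same sign in each state. With total-read scaling 7 fell and 2 rose, and with quantile normalization 6 fell and 1 rose. Nfkbiz, a nuclear IkB protein, had 17.6, 19.1 and 21 CPM in unstimulated diabetic libraries, against 29.3, 30.9 and 37 CPM in unstimulated control libraries. It had 423, 440 and 463 CPM in stimulated diabetic libraries, against 651, 722 and 897 CPM in stimulated control libraries. The phenotypes were apart in both states, and Nfkbiz fell by 0.71 ± 0.05 (adjusted p = 1.7e-07). Zfp36, which shortens the life of cytokine mRNAs, fell by 0.25 ± 0.04. Dusp2, a phosphatase of MAP kinases, fell by 0.43 ± 0.05, with -0.08 in unstimulated cells.

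Chemokines were mostly lower. Of 17 tested, 10 fell and 3 (Cxcl1, Cxcl2 and Cxcl3), which attract neutrophils, rose. In the second column block 6 fell. Ccl4, which attracts monocytes and lymphocytes, had 19.1, 32 and 38.2 CPM in unstimulated diabetic libraries, against 40.7, 58.9 and 65.3 CPM in unstimulated control libraries. It had 510, 656 and 872 CPM in stimulated diabetic libraries, against 1264, 1335 and 1811 CPM in stimulated control libraries. Ccl4 fell by 1.0 ± 0.12 (adjusted p = 7.8e-05), without overlap in either state, and was the chemokine called in each state (3 chemokines were without control mouse 5). Cxcl11, an interferon-induced ligand of CXCR3, fell by 0.42 ± 0.05, with -0.05 in unstimulated and -0.80 in stimulated cells. Cxcl2 rose by 0.47 ± 0.05 and Cxcl3 rose by 0.59 ± 0.08 in the mean. Neither was called in unstimulated cells, where Cxcl2 differed by 0.26 (adjusted p = 0.099) and Cxcl3 by 0.04 (adjusted p = 0.85). Cxcl3 had at most 0.168 CPM in unstimulated libraries. In stimulated cells Cxcl2 differed by 0.68 and Cxcl3 by 1.13. Among 9 chemokine receptors the members that fell included Ccr3 and Cxcr3, and Cx3cr1 rose. Ccr3, an eotaxin receptor, fell by 1.23 ± 0.11 (adjusted p = 8.7e-06), with 18.3 to 23.3 CPM in unstimulated diabetic against 45.5 to 68 CPM in unstimulated control libraries.

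Cytokines did not share a direction. Of 18 inflammatory cytokines, 6 fell and 1 (Ifnb1) rose with the same sign in each state. Among all genes tested 17.3% fell and 19.3% rose in this way. Ebi3, a subunit of interleukin 27, fell by 0.44 ± 0.05. Tnf differed by -0.06 ± 0.04 (adjusted p = 0.22) and Il6 by 0.13 ± 0.08 (adjusted p = 0.21) in the mean. For Il6 this mean joined -0.28 in unstimulated cells (adjusted p = 0.1) and 0.53 in stimulated cells (adjusted p = 0.00057). Its difference between the states was called. In stimulated cells Il6 had 534 to 915 CPM in diabetic and 426 to 625 CPM in control libraries, with overlapping ranges. Tnf had 1159 to 1338 CPM in stimulated diabetic and 1091 to 1384 CPM in stimulated control libraries. Csf1, the growth factor M-CSF, had 55 to 60.6 CPM in stimulated diabetic against 81 to 117 CPM in stimulated control libraries, and overlapped in unstimulated cells. Il10, an anti-inflammatory cytokine, had 115, 131 and 168 CPM in stimulated diabetic libraries, against 210, 265 and 303 CPM in stimulated control libraries. The phenotypes were also apart in unstimulated cells, at 1.96 to 3.28 CPM in diabetic and 3.5 to 5.19 CPM in control libraries. Il10 fell by 0.75 ± 0.08 (adjusted p = 6.9e-06). Of 10 anti-inflammatory and M2-type genes, 5 fell (Il10, Il1rn, Il4ra, Igf1 and Folr2) and 3 rose (Tgfb1, Ccl22 and Ccl24). With quantile normalization 2 of them fell. Ccl24, an eotaxin of alternatively activated cells, rose by 0.73 ± 0.12 in the mean. Its difference was 0.16 in unstimulated cells (adjusted p = 0.62) and 1.31 in stimulated cells.

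Cell cycle genes were more often higher than lower. Of 23 cell cycle genes, 13 rose and 4 fell (Ccnd1, Mcm6, Mcm7 and Pcna) with the same sign in each state, and the median was 0.25. In each column block 2 of them fell, as with total-read scaling. Ccnb2, a mitotic cyclin, had 54.6 to 68.9 CPM in unstimulated diabetic against 33.4 to 46.1 CPM in unstimulated control libraries. It had 15.4 to 20.4 CPM in stimulated diabetic against 8.37 to 13.3 CPM in stimulated control libraries and rose by 0.61 ± 0.07 (adjusted p = 2e-05). Bub1, a kinase of the spindle checkpoint, rose by 0.42 ± 0.05, and Mki67, the Ki-67 antigen, rose by 0.44 ± 0.06. Ccnd1, the cyclin of the G1 phase, fell by 0.48 ± 0.06.

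Lysosomal genes were lower more often than higher, with 11 that fell and 4 that rose of 24. Among all genes tested 17.3% fell and 19.3% rose with the same sign, the shares to set beside the counts of this paragraph. With total-read scaling 11 fell and 8 rose. Ctsh, a cathepsin, fell by 0.56 ± 0.06 (adjusted p = 8.2e-06), and Lgmn, the protease legumain, fell by 0.47 ± 0.05. Of 23 genes of cholesterol synthesis and uptake, 10 rose and 0 fell with the same sign in each state, and 4 were called higher in each state. The list was split in stimulated cells, where 7 were called higher and 5 lower. A difference between the states was called for 8. Among the genes that rose were Lss, by 0.27 ± 0.06, and Sqle, by 0.28 ± 0.06. In the second column block 5 of the list rose, and in the first 1 fell. Of 20 genes of the unfolded protein and amino acid stress response, 6 rose and 5 fell. In the second column block 3 rose and 3 fell. Ddit3, the stress factor CHOP, fell by 0.60 ± 0.07, and Psat1, an enzyme of serine synthesis, rose by 0.31 ± 0.04. Of 33 histone and DNA modifying enzymes, 5 rose and 6 fell, near the shares of all genes tested. With total-read scaling 10 rose and 3 fell. Setd7, a lysine methyltransferase, rose by 0.46 ± 0.05 (adjusted p = 1.8e-06), with 62.1 to 67.9 CPM in unstimulated diabetic against 51.1 to 58.4 CPM in unstimulated control libraries. Hdac4, a histone deacetylase, had a difference of -0.10 in unstimulated and 0.68 in stimulated cells. Of 26 ribosomal protein genes, 2 rose and 6 fell, whereas 3 rose and 0 fell with total-read scaling. Without diabetic mouse 4 or 6, 3 ribosomal genes fell.

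Several of the largest rises belonged to none of these pathways. F10, coagulation factor X, had 11.2, 18.4 and 25.7 CPM in unstimulated diabetic libraries, against 2.25, 7.62 and 13.1 CPM in unstimulated control libraries. It had 197, 311 and 341 CPM in stimulated diabetic libraries, against 37.7, 94.3 and 124 CPM in stimulated control libraries. The ranges overlapped in unstimulated cells and were apart in stimulated cells. F10 rose by 1.48 ± 0.29 (adjusted p = 0.002), and by 1.23 without control mouse 3. It was not called in the first column block, where it differed by 1.04. The neighbouring gene F7, coagulation factor VII, ends at base 13035809 of chromosome 8 and F10 begins at 13037308. F7 rose by 1.03 ± 0.21, with 8.40 to 16.1 CPM in unstimulated diabetic against 2.25 to 8.05 CPM in unstimulated control libraries, and by 0.85 without control mouse 3.

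Acpp, an acid phosphatase, rose by 1.40 ± 0.19, without overlap in either state. Serpinb9b, of a family of protease inhibitors with similar copies whose reads are uncertain, rose by 1.18 ± 0.12. Mamdc2 rose by 1.19 ± 0.28, but was called in neither column block (0.72 and 1.66). Ctsk, the collagen-degrading cathepsin of osteoclasts, had 10.2, 14.8 and 25.3 CPM in unstimulated diabetic libraries, against 3.36, 5.42 and 7.53 CPM in unstimulated control libraries. It rose by 1.15 ± 0.18 (adjusted p = 0.00044), without overlap in either state. Among 10 osteoclast genes, 3 rose (Ctsk, Mmp9 and Dcstamp) and 2 fell (Tnfrsf11a and Mmp14).

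Markers of other cell types were looked at because marrow cultures can hold them. Ighm, the heavy chain of IgM, had 23.3, 36.7 and 57.3 CPM in unstimulated diabetic libraries, against 5.92, 10.3 and 19.5 CPM in unstimulated control libraries. It rose by 1.31 ± 0.22 (adjusted p = 0.00058), and was not called in the second column block, where it differed by 1.28. Of 14 markers of the B lineage, 3 were in the table, and their summed level was 29.2 to 64.4 CPM in unstimulated diabetic against 12 to 24.8 CPM in unstimulated control libraries. Ighm alone made up 23.3 to 57.3 CPM of it in diabetic and 5.92 to 19.5 CPM in control libraries. In stimulated cells the sum was 4.40 to 6.92 CPM in diabetic against 2.99 to 4.55 CPM in control libraries. Cd79b, of the B cell receptor, fell by 0.23 ± 0.07 and was called in neither column block, and Cd79a and Ms4a1 were not analysed here. Mmp8, a collagenase of neutrophils, rose by 0.70 ± 0.09, and S100a8, a neutrophil calcium-binding protein, rose by 0.31 ± 0.06 but was not called in the second column block. Of 4 neutrophil markers tested, 3 rose and 1, Lcn2, an iron-trapping protein of neutrophil granules, fell by 0.26 ± 0.09, with a call that was lost in 12 of the alternatives. Lcn2 had at most 1.65 CPM in unstimulated libraries. After the stimulus it had 196 to 297 CPM in diabetic and 219 to 335 CPM in control libraries. It was called in neither state (adjusted p = 0.091 and 0.25). The 5 neutrophil markers in the table, of 16, summed to 35.3 to 45.3 CPM in unstimulated diabetic against 16.9 to 24.8 CPM in unstimulated control libraries. Mmp8 alone made up 33.5 to 43 CPM of this sum in diabetic and 14.2 to 23.1 CPM in control libraries. In stimulated cells the 5 markers summed to 240 to 340 CPM in diabetic against 252 to 371 CPM in control libraries, with overlapping ranges. Vwf, von Willebrand factor, rose by 0.58 ± 0.07, and the 4 endothelial markers in the table, of 7, summed to 92.8 to 125 CPM in unstimulated diabetic against 61.1 to 82 CPM in unstimulated control libraries. Vwf alone made up 84.5 to 116 CPM of this sum in diabetic and 47.9 to 71.7 CPM in control libraries. In stimulated cells the 4 markers summed to 108 to 131 CPM in diabetic and 120 to 166 CPM in control libraries, with overlapping ranges. Cdh5, an endothelial cadherin, fell by 0.23 ± 0.05, with 0.00 in unstimulated cells, and was not called in the second column block. Ly6a, a progenitor marker that interferon also raises, fell by 1.14 ± 0.33 and was called in neither column block. The 7 progenitor markers in the table, of 9, summed to 26 to 49.8 CPM in unstimulated diabetic against 41.1 to 149 CPM in unstimulated control libraries. Of this sum, Ly6a made up 6.02 to 25.5 CPM in diabetic and 22 to 131 CPM in control libraries. Cd34, a surface marker of progenitors, rose by 0.52 ± 0.13 and was not called in the first column block. The 5 dendritic cell markers in the table, of 10, summed to 1.90 to 3.03 CPM in unstimulated diabetic and 1.80 to 2.48 CPM in unstimulated control libraries. The 4 T and NK cell markers in the table, of 14, summed to 261 to 321 CPM in unstimulated diabetic against 209 to 267 CPM in unstimulated control libraries. Of this sum, Il7r, a cytokine receptor chain, made up 257 to 313 CPM in diabetic and 200 to 258 CPM in control libraries, and it rose by 0.30 ± 0.05. Cd4, a T cell co-receptor that myeloid cells can also carry, fell by 0.60 ± 0.10, and Lck, a T cell kinase, fell by 0.20 ± 0.07 with a call that was lost in 9 of the alternatives. Lck had at most 0.613 CPM in unstimulated libraries, where its difference was -0.04 (adjusted p = 0.87). After the stimulus it had 31 to 46 CPM in diabetic and 36.7 to 60.9 CPM in control libraries. Cd3d, Cd3e and Cd3g were not analysed here. The 2 stromal markers in the table, of 11, summed to 0.223 to 0.411 CPM in unstimulated diabetic against 0.0378 to 0.214 CPM in unstimulated control libraries. In stimulated cells they summed to 2.99 to 5.15 CPM in diabetic and 2.91 to 4.94 CPM in control libraries, with overlapping ranges. The 3 platelet markers in the table, of 7, summed to 47.4 to 63.1 CPM in unstimulated diabetic against 57.7 to 73.4 CPM in unstimulated control libraries. Pf4 alone made up 47 to 62.1 CPM of this sum in diabetic and 57.2 to 72.5 CPM in control libraries. The platelet marker Pf4 fell by 0.31 ± 0.08 and the mast cell marker Hdc fell by 0.28 ± 0.05. Hdc had 0.168 to 0.362 CPM in unstimulated diabetic and 0.245 to 0.843 CPM in unstimulated control libraries, where its difference was not called (adjusted p = 0.14). After the stimulus it had 144 to 156 CPM in diabetic and 170 to 229 CPM in control libraries. The part of other cell types in the results above was not tested.

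Some genes differed in each state with opposite signs, and these largely cancel in the mean. Saa3, an acute phase protein, had 11.5, 13.2 and 14.5 CPM in unstimulated diabetic libraries, against 14.4, 23.4 and 41.1 CPM in unstimulated control libraries. It had 4886, 5575 and 6512 CPM in stimulated diabetic libraries, against 2688, 2830 and 3462 CPM in stimulated control libraries. Diabetic cells were lower at rest and higher after the stimulus, with log2 differences of -0.78 ± 0.16 (adjusted p = 0.0011) and 0.92 ± 0.16 (adjusted p = 6.1e-05), and a difference between the states of 1.70 ± 0.21. Il1b, an inflammatory cytokine, had -0.47 ± 0.13 in unstimulated and 0.64 ± 0.13 in stimulated cells. Runx3, a transcription factor, had -0.60 ± 0.19 in unstimulated and 0.55 ± 0.19 in stimulated cells. Its unstimulated difference was not called without control mouse 3 (-0.53) or 6 (-0.57) or diabetic mouse 2 or 6 (-0.52 each), nor its stimulated one without control mouse 2 (0.48), 4 (0.43) or 6 (0.49) or diabetic mouse 3 (0.48) or 4 (0.46). Kcnj2, a potassium channel, went the other way, with 0.45 ± 0.11 in unstimulated and -0.53 ± 0.11 in stimulated cells, as did the prokineticin receptor Prokr1, with 0.44 ± 0.13 and -0.43 ± 0.13. The unstimulated difference of Prokr1 was 0.34 and not called without control mouse 3.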

How the data were processed

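RNA of 24 libraries from 12 mice was measured by stranded mRNA sequencing, although the labels give the molecule as genomic DNA. Reads were aligned with STAR 2.5.3a to GRCm38 and scaled with edgeR 3.16.5 in R 3.3.3, per the submitters' processing notes. No source used here names the program that counted reads. For 13568 genes the authors deposited log2 CPM, read counts scaled to library size. The smallest deposited log2 value, -6.67, stands for 0 reads, and after its removal every value was a whole number of reads within 0.01. Because the unit is log2 CPM, limma and no count test was used.

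Values were turned to log2(CPM + 1), which understates changes of low genes, and tests covered the 11710 genes that reached 1 CPM in 6 or more libraries. Library columns were matched to samples by title in 24 of 24 cases. The libraries of a mouse share phenotype and replicate number in the titles. limma 3.58.1 (R 4.3.3, trend and robust) compared the 6 diabetic with the 6 control mouse means, each state in a model of the 4 groups, and the difference between the states on 12 differences of a mouse, with Benjamini-Hochberg adjustment at 0.05. The model of the 4 groups used a single spread per gene for both states and took the libraries of a mouse as independent (20 residual degrees of freedom). The fit was tested on simulated data with 200 changed genes. Alternatives were other pseudocounts (0.25 and 5 CPM), filters, scalings, weights, each column block, a replicate block and leaving out each mouse. Floors of 3 reads cover counting error only.

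Genes were named by rule: the 10 largest same-sign differences each way, the 6 each way with the largest smaller state difference, up to 3 of each of 39 lists by adjusted p, a panel of 15 genes, and 5 genes with opposite signs. The members and lists were chosen with earlier results of these data known, and further genes were named after their values were seen. Some genes the rule gives are not described, and some results are not reported here. Promoters came from RefSeq (GRCm38.p6) and were searched over 250 bases on both strands. Python 3.11.15, pandas 2.3.3, numpy 2.4.6 and matplotlib 3.10.9 made the tables and figures.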

Additional observations from a re-analysis of the deposited data

Results flagged for a closer look

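In 23 of 240 groups of 6 mouse means, 1 mouse lay far from the other 5, with a gap to its nearest neighbour that exceeded Dixon's 95% limit as a share of the group's range. Chance gives about 1 in 20 such groups. Control mouse 3 was the mouse in 16 of them. It was the highest control, with the gap as a share of the range in brackets, for Apol9b (0.787), Keap1 (0.814), Ly6a (0.691), Maf (0.637), Ms4a4c (0.731), Nfkbiz (0.768), Pparg (0.699), Tlr9 (0.814) and Zfp36 (0.738). It was the lowest control for F10 (0.631), F7 (0.678), Hmox1 (0.703), Itgax (0.716), Mmp8 (0.667), Sqle (0.683) and mt-Cytb (0.635). Of these 16 genes, F10 and F7 are given above without this mouse. Without it the log2 difference of the mean was -1.31 for Apol9b, -0.02 for Keap1, -0.86 for Ly6a and -0.38 for Maf. It was -1.43 for Ms4a4c, -0.66 for Nfkbiz, -0.76 for Pparg, 1.01 for Hmox1, 0.62 for Itgax and 0.63 for Mmp8. Such values are not given here for Tlr9, Zfp36, Sqle and mt-Cytb. Among the diabetic mice, mouse 5 was the highest for Clec4e (0.653), mouse 1 was the highest for Il10 (0.780), mouse 5 was the lowest for Runx1 (0.738), mouse 5 was the lowest for Tlr9 (0.723), mouse 3 was the highest for mt-Cytb (0.690) and mouse 3 was the highest for mt-Nd4 (0.694). Control mouse 5 was the lowest for Cdh5 (0.728).

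For 65 of the 120 genes examined, the difference between diabetic and control cells itself differed between the states (limma on the 12 differences of a mouse, adjusted p below 0.05 over all genes). The values in brackets are the stimulated difference minus the unstimulated one, on the log2 scale. Genes are grouped by the sign of the difference (diabetic minus control) alone, whether or not it was called in a state. The values are of log2(CPM + 1), and the added 1 CPM shrinks differences in a state where a gene is low. For Apol9b this sets the sign. Its mean CPM was 0.183 in diabetic and 1.6 in control unstimulated libraries, a larger ratio than 9.39 and 36.5 in stimulated ones. Other genes near or below 1 CPM in a state share this limit. Among genes with a negative difference in both states, a positive value marks a smaller difference after the stimulus: Adgre1 (0.14), Apol9b (-0.76), Bst2 (0.59), Ccnd1 (0.36), Cd5l (-0.51), Cxcl11 (-0.75), Dusp2 (-0.70), Ebi3 (-0.38), Fcgr1 (0.73), Gbp9 (0.43), Ifi206 (1.69), Ifi208 (1.12), Ifi213 (1.59), Ifi44 (1.47), Ifit3 (0.81), Ifitm3 (0.50), Il10 (-0.40), Irf7 (1.69), Irf8 (-0.62), Irf9 (0.24), Irgm1 (0.48), Ly6a (1.10), Ms4a4c (0.89), Oas1a (0.53), Pparg (-1.05) and Tyk2 (-0.41). Among genes with a positive difference in both states, called or not, a positive value marks a larger difference after the stimulus: Acpp (0.58), Bnip3 (0.38), Ccl24 (1.15), Cd36 (-0.19), Ctsk (-0.39), Cxcl3 (1.08), Egln3 (0.55), F10 (0.59), Gclc (1.10), Gclm (0.60), H2-Ab1 (0.64), H2-DMb1 (0.57), Hmox1 (1.5), Ighm (-0.57), Mafg (0.67), Mmp8 (-0.32), Mxi1 (0.59), Nfe2l2 (0.21), Olr1 (0.63), Pdk1 (0.35), Psat1 (-0.31), S100a8 (-0.28), Setd7 (0.44), Slc7a11 (1.46), Srxn1 (1.24), Txnrd1 (0.52), Vegfa (0.52) and Vwf (-0.28). Genes with opposite signs in the states, or with a rounded difference of 0 in one, were Cdh5 (-0.46), Csf1 (-0.80), Hdac4 (0.77), Idh1 (-0.42), Il1b (1.11), Il6 (0.81), Kcnj2 (-0.98), Marco (2.62), Prokr1 (-0.88), Runx3 (1.14) and Saa3 (1.70).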

How the results depend on the processing

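Of 109 genes given here with a value and called in the mean, 93 kept call and direction in all 27 alternatives. The other 16 lost the call in a column block: Cd79b, H2-Ab1, Itgax, Ly6a and Mamdc2 in each, Cd34 and F10 in the first, and Cdh5, Csf1, F7, Ifi208, Ighm, Lck, Lcn2, Pf4 and S100a8 in the second. H2-Ab1, Itgax and Lcn2 also lost it with the replicate block, Cdh5 on the deposited log2 values, and Itgax, Lck and Lcn2 without several single mice. Lck also lost it with total-read scaling, a pseudocount of 0.25 CPM and the deposited log2 values, and Lcn2 with quantile normalization, array weights and a pseudocount of 5 CPM. A further 55 list members are named only within a count: 48 were called, of which 19 kept the call in every alternative, 29 lost it in at least 1 and 9 of those in column blocks alone, and none turned. The first column block alone called 3386 genes in the mean and the second 3091, and the second held 2734 with the same sign in each state. Genes called in each state numbered 688 and 409, those called for a difference between the states 1782 and 1373, and those called in unstimulated cells 1506 and 861. Array weights called 3502 genes in unstimulated cells. A block holds fewer mice. Leaving out each mouse in turn gave 4720 to 5234 genes in the mean, 3963 to 4320 with the same sign, 1035 to 1198 in each state, 3167 to 3874 for the difference between the states, 1955 to 2229 in unstimulated and 5621 to 6152 in stimulated cells. Calls were gained by Csf1r with total-read scaling (0.09) and quantile normalization (0.15), Runx1 with total-read scaling (0.08), Il6 with quantile normalization (0.19) and a pseudocount of 5 CPM (0.22), Il1b with that pseudocount (0.18) and Cd36 without control mouse 2 (0.18). Among genes that are given by their mean and were not called, the direction of 5 turned: Csf1r was 0.00 and Runx1 -0.01 with median-of-ratios scaling, Runx1 -0.03 in the second column block, Il6 -0.06 on the deposited log2 values, Keap1 0.03 with total-read scaling and 0.00 with quantile normalization, and Tnf 0.00 with total-read scaling and 0.00 with quantile normalization. Of the genes with opposite signs in the states, the mean was near 0 and took both signs for Runx3 (-0.10 to 0.07), Kcnj2 (-0.09 to 0.04), Prokr1 (-0.04 to 0.08) and Saa3 (-0.01 to 0.18). Each of these 4 lost the call of a state difference in a column block, and Runx3 also with a pseudocount of 5 CPM. The cause was not tested. With the replicate number as a block, 5015 genes were called in the mean, 4127 with the same sign, 1161 in each state and 3440 for the difference between the states. The MHC class II count was then 2. Deviations of same-numbered diabetic and control mice correlated at -0.28 to 0.32 (2 of 6 over 0.1, and 4 of 12 mice closest to their own number). These values cannot show whether the number is a pairing, because the measure was weak within a mouse as well. The 2 libraries of 1 mouse deviated together only in part (mean correlation 0.12, -0.08 to 0.40), and their link rests on the titles. No age, cage or culture date was available for the mice. The p-values of the mean and of the difference between the states measure the spread between these mice. Those of a single state rest on a spread pooled over both states, so a gene has the same SE in each (0.19 and 0.19 for Irf7). Counts of genes called in each state rest on these pooled tests.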
